A study of Gallus gallus with 3 samples.

Results

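The sympathetic and autonomic lineage genes are 7 genes that build or mark neurons of the autonomic nervous system, PHOX2A, HAND1, HAND2, GATA2, GATA3, TH and DBH. They were chosen by gene symbol alone, and every probe set that the platform annotation gives to one of these symbols was taken. Of the 7 genes, 6 had a probe set. DBH had 2 and the others 1 each, which makes 7 probe sets of 38439 on the array and 6 genes of 13009. PHOX2A had no probe set under that name in the annotation used here and was not analysed here.

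Neural crest cells (NCC) of chicken embryos, White Leghorn by the labels (the methods also name Rhode Island Red eggs), were sorted with an antibody against HNK1, a sugar epitope on migrating crest cells, and their RNA was read on the Affymetrix chicken genome array. There were 3 arrays, each of cells pooled from many embryos: the HH9 array (HH, Hamburger and Hamilton stages of the chick embryo) and 2 trunk arrays, titled HH16 and HH19. The HH9 array is taken as cranial NCC from the study's methods, which describe heads cut between midbrain and hindbrain, although its source label says trunk. The age labels of the trunk arrays contradict their titles, HH19 under the title HH16 and HH16 under the title HH19. Both descriptions name HH16. Both arrays are therefore called here by title, the HH16-titled and the HH19-titled array, and which stage each holds is not settled. The study compared the trunk stages to find genes tied to the end of migration and the start of differentiation, and the cranial cells served as a second population. Taken by the titles, the later stage is the one with less of the neuronal genes, which is opposite to the direction the study gives. Taken by the age labels, every difference between the trunk arrays would change its direction, and that of the neuronal genes would be the study's. Other genes that the study names fall on both sides. It counts GATA3 and TWIST1 as higher at the later stage, and here both were higher on the HH19-titled array. Their signals were 72.0 and 15.2 on the HH16-titled array and 135 and 516 on the HH19-titled array, those of GATA3 weak on both. MSX2, which it counts as lower at the later stage, was also higher on the HH19-titled array, with 1935 against 535. By the titles GATA3 and TWIST1 keep the study's direction and MSX2 does not. The HH9 array differs from the others in axial level, stage and dissection at once, which cannot be told apart.

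Sympathetic neurons arise from ventrally migrating trunk NCC that reach the dorsal aorta, where BMP signals switch on a network of transcription factors. PHOX2A, HAND2, GATA2 and GATA3 belong to that network, and together they turn on the enzymes that make noradrenaline. TH makes L-DOPA from tyrosine, DDC turns it into dopamine, and DBH turns dopamine into noradrenaline. Most of these genes also work elsewhere in the embryo: the HAND genes in heart, limb and pharyngeal arches, the GATA genes in blood, surface ectoderm and spinal interneurons.

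The methods speak of biological replicates of each stage and of their mean, whereas there was a single deposited column per stage. The values are linear MAS5 signals from 1 array per group, so no difference below has a replicate check and no p-value was computed. Ratios were taken with a floor of 99.8, under which 40% of all signals lie, in place of any weaker signal. Where 1 of the 2 signals lay under the floor, the ratio is a lower bound of its size ("at least"), and a pair of signals under it has no ratio. Where both trunk signals of a probe set lay between the floor and 4 times the floor, the log2 ratios of 2 probe sets of the same gene differed by a median of 0.32 and a 90th percentile of 0.82 over 940 genes, which describes the spread between probe sets and not between embryos. The sorted cells carried crest markers on each array. Of 14 neural crest genes with a probe set, 13, 13 and 14 lay at or above the floor on the HH9 array, the HH16-titled array and the HH19-titled array. SOX10, the crest and glial factor, had signals of 12315, 15746 and 17338 on them.

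Few of the autonomic genes gave a signal at or above the floor. On the HH9 array 2 of the 6 genes did, GATA3 and TH. On the HH16-titled array 3 did by the probe set that stands for the gene, HAND2, GATA2 and TH, and on the HH19-titled array only GATA3 did. Over all 13009 genes the share at or above the floor was 76.8% on the HH9 array, 78.6% on the HH16-titled array and 78.5% on the HH19-titled array. A signal under the floor is a weak measurement and does not show that the gene was silent.

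**Figure D1:**
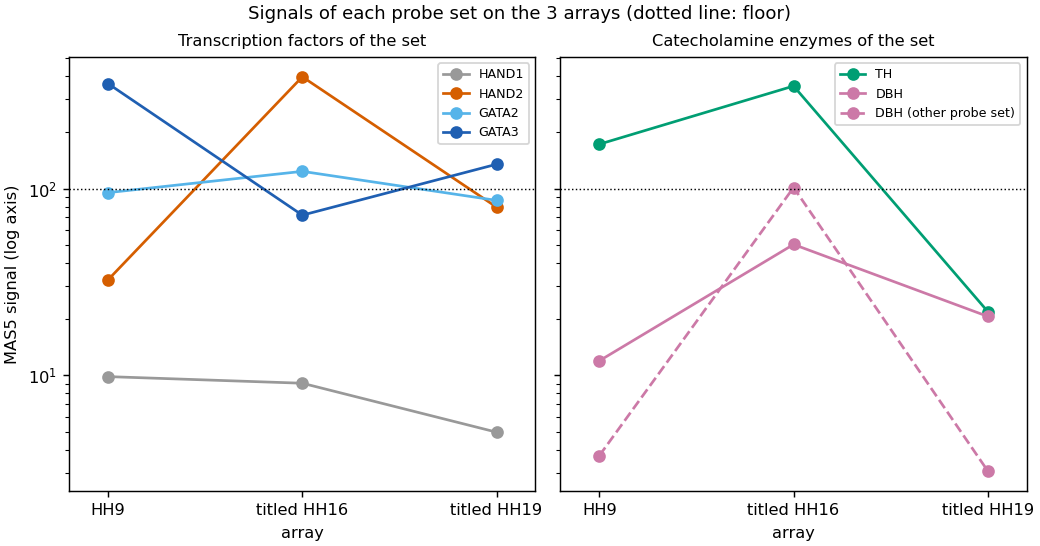
MAS5 signal (log axis) of each probe set on the HH9 array, the HH16-titled array and the HH19-titled array, 1 point per array, with the floor of 99.8 as a dotted line. HAND2, TH and both DBH probe sets have their highest signal on the HH16-titled array, GATA3 has its highest on the HH9 array, and HAND1 stays under the floor on all 3 arrays.

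HAND2, a basic helix-loop-helix factor needed for noradrenergic differentiation of sympathetic neurons, stood out on the HH16-titled array. Its signals were 32.5 on the HH9 array, 396 on the HH16-titled array and 79.5 on the HH19-titled array. Only the signal on the HH16-titled array reached the floor. HAND2 was therefore at least 3.97-fold lower on the HH19-titled array than on the HH16-titled array, a log2 ratio of -1.99 or beyond. It was at least 3.97-fold higher on the HH16-titled array than on the HH9 array. With the floor at the 20th percentile of all signals (32.1), below all 3 signals, the ratio of the trunk arrays was 4.98-fold and that of the HH16-titled array over the HH9 array 12.2-fold. At that floor HAND2 was also 2.45-fold higher on the HH19-titled array than on the HH9 array. With the floor at the 60th percentile (235) both bounds shrank to at least 1.68-fold.

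HAND1, the close relative of HAND2 that is known from the heart and lateral mesoderm as well as from sympathetic ganglia, showed no signal above the floor. Its signals were 9.85, 9.08 and 4.965 on the HH9 array, the HH16-titled array and the HH19-titled array. No ratio was taken. The probe sets of both HAND genes carry the suffix that marks probes shared by several transcripts, so each may read more than 1 transcript.

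The GATA zinc finger factors stayed under 2-fold between the trunk arrays. GATA2, which acts early in noradrenergic differentiation in the chick, gave signals of 95.0 for the HH9 array, 124 for the HH16-titled array and 86.4 for the HH19-titled array. These lie close to the floor on every array, and GATA2 was at least 1.24-fold lower on the HH19-titled array than on the HH16-titled array, a log2 ratio of -0.31 or beyond, and 1.43-fold lower if the floor was set at the 20th percentile. GATA2 was likewise at least 1.24-fold higher on the HH16-titled array than on the HH9 array.

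GATA3, which is needed for the survival of sympathetic neurons in the mouse, ran the other way from HAND2. Its signals were 364 on the HH9 array, 72.0 on the HH16-titled array and 135 on the HH19-titled array. The array on which HAND2 and TH had their highest signals was thus the array with the lowest signal of GATA3. GATA3 was at least 3.65-fold lower on the HH16-titled array than on the HH9 array, and 2.70-fold lower on the HH19-titled array than on the HH9 array, where both signals were above the floor. Between the trunk arrays it was at least 1.35-fold higher on the HH19-titled array than on the HH16-titled array. With the floor at the 20th percentile this ratio was 1.87-fold, a log2 ratio of 0.91. The 90th percentile of 0.82 between probe sets of a gene covers only signals of at least 99.8. The signal of 72.0 lies under that, so this spread does not apply to GATA3. With the floor at the 60th percentile GATA3 was at least 1.55-fold lower on either trunk array than on the HH9 array.

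TH, the rate-limiting enzyme of catecholamine synthesis, was measured above the floor on 2 arrays. Its signals were 173 on the HH9 array, 353 on the HH16-titled array and 21.9 on the HH19-titled array. TH was at least 3.54-fold lower on the HH19-titled array than on the HH16-titled array, a log2 ratio of -1.82 or beyond. The bound was at least 11-fold for a floor at the 20th percentile and at least 1.50-fold for one at the 60th. The cranial cells of the HH9 array therefore had a higher signal of TH than the trunk cells of the HH19-titled array, which were at least 1.73-fold lower. TH was 2.05-fold higher on the HH16-titled array than on the HH9 array, a log2 ratio of 1.03. That difference rests near the 2-fold line: the log2 ratio was 0.88 when each array was centred on its median and 0.85 after quantile normalization. Over 844 genes with 2 probe sets in the same range of signals on these arrays, the 90th percentile of the difference between their log2 ratios was 0.85.

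DBH, the enzyme that makes noradrenaline and the most specific noradrenergic gene of the set, was read by 2 probe sets, and both had their highest signal on the HH16-titled array. The probe set with the higher mean log2 signal had 12.0 on the HH9 array, 50.2 on the HH16-titled array and 20.7 on the HH19-titled array, all under the floor. The other read 3.72, 101 and 3.08 in the same order. Its signal of 101 lay just above the floor, which allows only a bound of at least 1.01-fold in either comparison with the HH16-titled array. With the floor at the 20th percentile, that probe set was at least 3.16-fold lower on the HH19-titled array than on the HH16-titled array, and the first probe set at least 1.57-fold lower. The 2 probe sets order the arrays alike only in having the HH16-titled array on top: the first has the HH9 array lowest and the second the HH19-titled array.

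**Figure D2:**
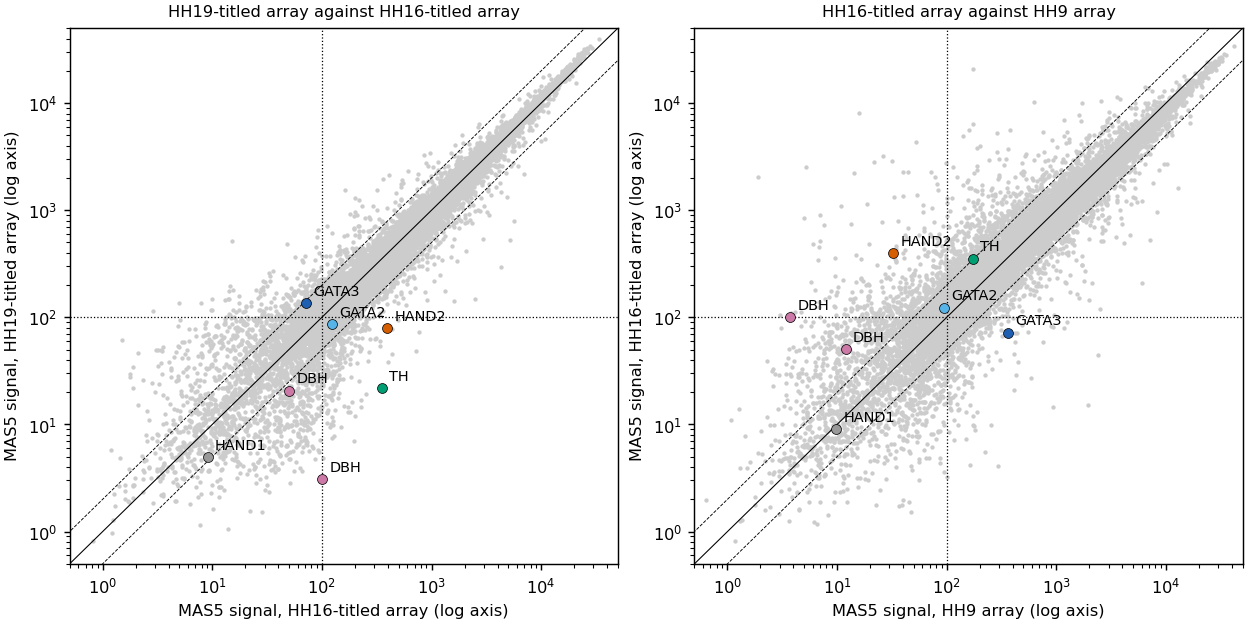
Each grey point is a gene, plotted by its MAS5 signal on 2 arrays (log axes), with the autonomic genes in colour, both DBH probe sets shown, dashed lines at 2-fold and dotted lines at the floor. HAND2, TH and, with weaker signals, both DBH probe sets lie below the lower dashed line for the HH19-titled array against the HH16-titled array, and GATA3 lies below it for the HH16-titled array against the HH9 array.

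Between the trunk arrays, 4 of the 6 genes had a ratio, and all 4 ratios were bounds. At least 2-fold lower on the HH19-titled array than on the HH16-titled array were 2 of them, HAND2 and TH, and 0 were at least 2-fold higher. Over the 10681 genes with a ratio, 1.93% were at least 2-fold lower and 1.54% at least 2-fold higher. In either direction the share was 3.46%. Over the 3910 genes whose brighter signal was under 4 times the floor, the range in which these 4 genes fall, 1.94% were at least 2-fold lower. The median log2 ratio of the 4 genes was -1.07, against 0.02 over all genes with a ratio.

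Against the HH9 array, 4 genes had a ratio on the HH16-titled array. HAND2 and TH were at least 2-fold higher and GATA3 at least 2-fold lower, where 6.80% of all genes with a ratio were at least 2-fold higher, 3.20% at least 2-fold lower and 9.99% either. On the HH19-titled array only GATA3 and TH had a ratio to the HH9 array, and GATA3 was at least 2-fold lower, as were 2.58% of all genes with a ratio. The shares of all genes were 5.34% at least 2-fold higher and 7.92% in either direction. The medians were 0.67 for the 4 genes on the HH16-titled array and -1.11 for the 2 genes on the HH19-titled array, against -0.01 and 0.00044 over all genes. The 3 comparisons share arrays, so their ratios are not independent of each other.

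**Figure D3:**
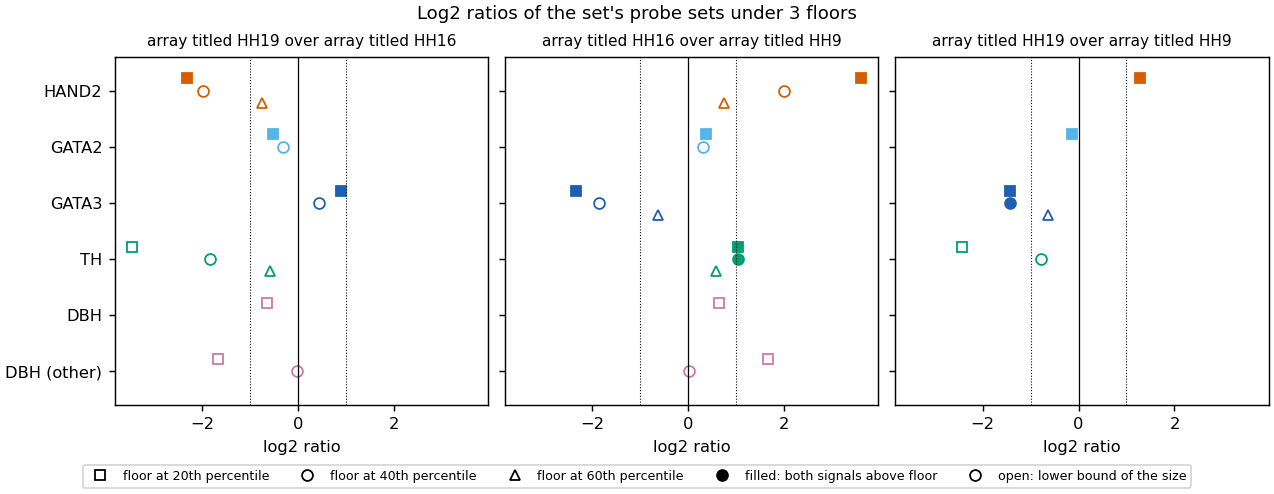
Log2 ratio of each probe set in the 3 comparisons with the floor at the 20th, 40th or 60th percentile of all signals, filled where both signals are above the floor and open where the ratio is a lower bound, with dotted lines at 2-fold. A floor shared by both signals can shrink a ratio but cannot reverse it, so direction is the same under all floors by construction. At the 60th percentile every ratio is a lower bound under 2-fold, because no signal of these genes lies 2-fold above that floor.

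Among the partners of the network measured here only ISL1, a LIM homeobox factor shared by sympathetic, sensory and motor neurons, differed by 2-fold between the trunk arrays. Of 5 such genes with a probe set, 1 was at least 2-fold lower on the HH19-titled array than on the HH16-titled array and 0 were higher, with a median log2 ratio of -0.56. ISL1 itself had a log2 ratio of -3.30. The AP-2 factors TFAP2A and TFAP2B, and SOX4 and SOX11, which act broadly in neuron precursors, had log2 ratios of -0.56, 0.13, -0.64 and -0.12. Against the HH9 array, 2 of the 5 were at least 2-fold higher on the HH16-titled array, ISL1 and SOX11, and SOX11 alone was on the HH19-titled array, just past 2-fold.

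At this floor none of the genes around TH and DBH in the noradrenaline pathway had a ratio of 2-fold between the trunk arrays. Of 11 genes of catecholamine synthesis, storage, uptake and breakdown with a probe set, 9 had a ratio, and 0 were at least 2-fold different between the HH19-titled array and the HH16-titled array, with a median log2 ratio of -0.10. Of these ratios 1 was a bound, that of the uptake gene SLC6A2. It was at least 1.76-fold higher on the HH19-titled array, with 175 against 96.3 on the HH16-titled array, the other way from TH. DDC, the enzyme between TH and DBH, gave signals of 16.5 for the HH9 array, 233 for the HH16-titled array and 161 for the HH19-titled array, by the probe set, of 5, with the highest mean log2 signal. Its log2 ratio of the HH19-titled array over the HH16-titled array was -0.53, and 2 of its other probe sets, with signals above the floor on the HH16-titled array only, gave -0.10 and -0.49 or beyond. Those 2 read 107 and 140 on the HH16-titled array and 26.6 and 53.2 on the HH19-titled array. Their bounds therefore do not show that DDC differed by less than 2-fold. GCH1, PTS and SPR make the cofactor of TH, tetrahydrobiopterin. Their log2 ratios in this comparison were -0.38, -0.22 and -0.10. SLC18A2, which loads catecholamines into vesicles in neurons, lay under the floor on all 3 arrays, with signals of 93.2, 58.1 and 67.4 on the HH9 array, the HH16-titled array and the HH19-titled array.

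Against the HH9 array, 3 genes of this pathway were at least 2-fold higher on the HH16-titled array, QDPR, PTS and DDC, and 1, MAOA, was lower. DDC had a log2 ratio of 1.22 or beyond by the probe set that stands for it. Other probe sets of DDC gave 0.10 and 0.49 or beyond, or no ratio. QDPR and PCBD1 recycle tetrahydrobiopterin and MAOA breaks catecholamines down. On the HH19-titled array, QDPR, PCBD1 and PTS were at least 2-fold higher than on the HH9 array, and MAOA and GCH1 lower. MAOA had log2 ratios of -1.47 on the HH16-titled array and -1.37 on the HH19-titled array, both over the HH9 array. Its other probe sets, under the floor on both trunk arrays, gave only -0.63 and -0.03 or beyond in either comparison.

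**Figure D4:**
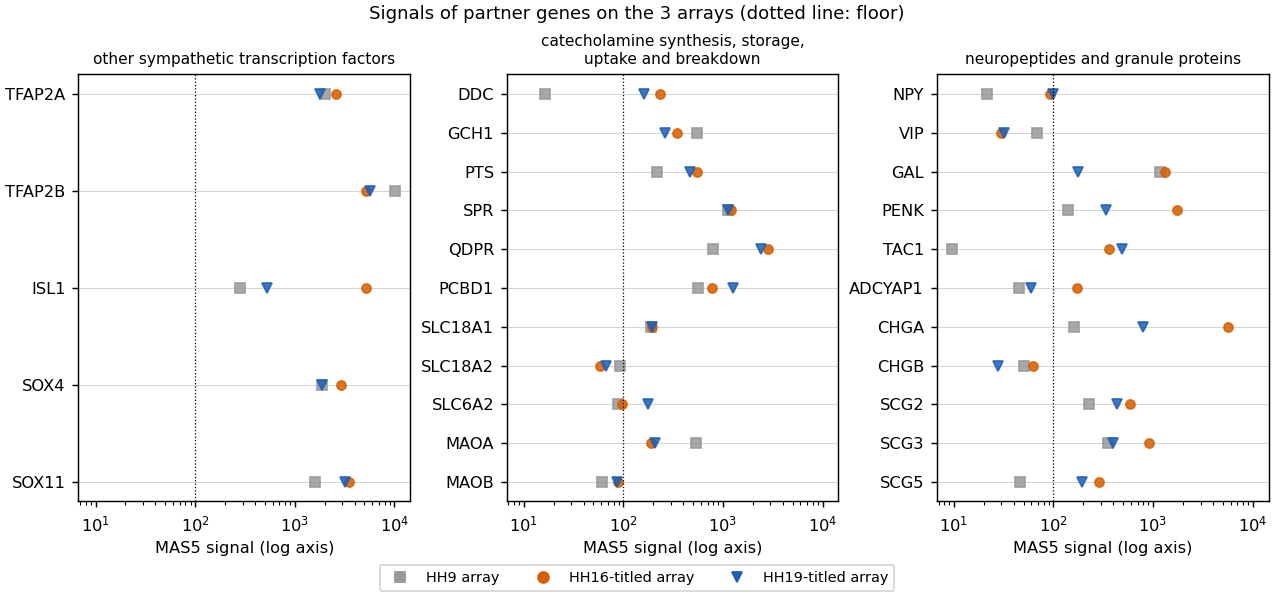
MAS5 signals (log axis) of annotated partner genes on the HH9 array (squares), the HH16-titled array (circles) and the HH19-titled array (triangles), 1 point per array, with the floor of 99.8 as a dotted line. ISL1, PENK and CHGA stand far to the right on the HH16-titled array. The catecholamine pathway genes drawn, which leave out TH and DBH, differ by less than 2-fold between the trunk arrays.

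Receptors of autonomic precursors were mixed. Of 15 with a probe set, 2 were at least 2-fold lower on the HH19-titled array than on the HH16-titled array and 0 higher, with a median log2 ratio of -0.45. These were GFRA1, a GDNF co-receptor, with a log2 ratio of -1.47, and CHRNA3, a subunit of the ganglionic acetylcholine receptor, with -1.30 or beyond. RET, the receptor tyrosine kinase that pairs with GFRA1, had a log2 ratio of -0.32 by the probe set, of 3, with the highest mean log2 signal, and of -0.80 by another. Over the HH9 array, the HH16-titled array gave 0.71 by the first and 2.07 by the other, so the probe sets of RET disagree on a 2-fold difference. CXCR4, a chemokine receptor of ventrally migrating sympathetic precursors, was lower on both trunk arrays than on the HH9 array, with log2 ratios of -2.08 on the HH16-titled array and -2.06 on the HH19-titled array.

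Granule and neuropeptide genes, which sympathetic neurons share with other neurons, summed to 2305 on the HH9 array, 11169 on the HH16-titled array and 3034 on the HH19-titled array. CHGA alone gave 159, 5639 and 792 of these sums. Of 11 with a probe set, 4 were at least 2-fold lower on the HH19-titled array than on the HH16-titled array: GAL, CHGA, PENK and SCG3, with log2 ratios of -2.90, -2.83, -2.35 and -1.19, and the median was -0.98. TAC1 went the other way, with a log2 ratio of 0.43. NPY, a co-transmitter of sympathetic neurons, lay just under the floor in both trunk samples, with 98.0 on the HH19-titled array and 92.2 on the HH16-titled array. Of 5 cholinergic and parasympathetic genes with a probe set, 0 of the 3 with a ratio were at least 2-fold different between the trunk arrays, with a median of -0.33.

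BMP signals induce the sympathetic network, and the genes that respond to them were mixed between the trunk arrays. Of 20 BMP pathway genes with a probe set, 2 were at least 2-fold higher on the HH19-titled array than on the HH16-titled array, the BMP targets MSX2 and ID1, with log2 ratios of 1.85 and 1.82, and the list's median was 0.48. The targets ID2, ID3, MSX1 and ID4 had log2 ratios of 0.69, 0.48, -0.01 and -0.12. The ligand genes BMP4 and BMP7 had log2 ratios of at least 0.60 and of 0.48, and the antagonist gene NOG had 1 of at least 0.70. Over the HH9 array, ID1 had log2 ratios of -3.11 on the HH16-titled array and -1.28 on the HH19-titled array.

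Most of the autonomic genes are also expressed by other cells that a dissected trunk or head could hold, and markers of those cells were read beside them. By the study's account, trunks were freed of ectoderm, notochord and neural tube, and heads of neural tube and notochord. Cells were then selected for HNK1, and the study reports that nearly all were HNK1-positive. How many other cells remained was not tested here. Some sensory neuron genes moved with HAND2 and TH. Of 12 with a probe set, 9 had a ratio between the trunk arrays. Of these, 4 were at least 2-fold lower on the HH19-titled array than on the HH16-titled array and 0 higher, with a median log2 ratio of -0.47. POU4F2 and RUNX1 had log2 ratios of 0.28 and 0.01. The summed signal of the 12 genes was 2102 on the HH19-titled array and 6101 on the HH16-titled array. At or above the floor were 8 of the 12 on the HH19-titled array and 9 on the HH16-titled array. NEUROD1, a factor of sensory neuron precursors, gave 150 on the HH19-titled array and 2508 on the HH16-titled array, the largest signal in the sum there. The part of the sensory neuron genes in the signals of HAND2 and TH was not tested. In bulk RNA, fewer cells of a type and less RNA per cell cannot be told apart. Markers of the mesoderm that expresses HAND2 were weak: of 7 lateral plate, limb and gut genes, 2, 1 and 3 lay at or above the floor on the HH9 array, the HH16-titled array and the HH19-titled array, with summed signals of 489, 378 and 720, and FOXF1, which marks gut mesoderm, lay under the floor on all 3. Without NKX3-2 the sums were 294, 284 and 321, and TBX5, which marks the forelimb field, was highest on the HH16-titled array, with 108, 142 and 109. Of 12 heart muscle genes, 8, 5 and 5 lay at or above the floor on the HH9 array, the HH16-titled array and the HH19-titled array, with sums of 4184, 1479 and 1824, and the heart factor NKX2-5 lay below the floor in both trunk samples. The part of both lists in the signal of HAND2 was not tested.

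Markers of other cells that express GATA3 were read in the same way. Of 9 surface ectoderm and epithelium genes, 7, 8 and 8 lay at or above the floor on the HH9 array, the HH16-titled array and the HH19-titled array, and their sums were 10255, 5186 and 5831, of which DLX5 gave 7568, 1807 and 2292. Of 13 arch and mesenchymal crest genes, 7, 5 and 6 did, with sums of 14465, 4130 and 5359, and DLX5 is in this list too. Without DLX5 the ectoderm sums were 2687, 3379 and 3538, lowest on the HH9 array. That order rests on TFAP2C, with 18.8, 1146 and 933. EPCAM, with 1559, 1017 and 1455, was like GATA3 highest on the HH9 array and lowest on the HH16-titled array. TP63 and KRT14 were highest on the HH16-titled array. The arch and mesenchymal sums without DLX5 were 6896, 2323 and 3066, also highest on the HH9 array and lowest on the HH16-titled array. The part of the ectoderm and arch lists in the signal of GATA3 was not tested. Ventral spinal cord genes, which mark the region where interneurons express GATA2 and GATA3, had 7, 11 and 10 of 12 at or above the floor and sums of 1754, 5212 and 9456. SOX14, a factor of ventral interneurons, lay under the floor on all 3 arrays. Of the 11 with a ratio, 5 were at least 2-fold higher on the HH19-titled array than on the HH16-titled array and 0 lower. These were PAX6, OLIG2, SOX1, VSX1 and NKX6-2, with log2 ratios of 2.44, 1.72, 1.53, 1.425 and 1.09. TAL2 and NKX6-1 had 0.47 and 0.29. TAL1, a V2 interneuron and blood factor, had 0.12, and its other probe sets lay under the floor on all 3 arrays. GAD1 and LHX3 had -0.11 and -0.43, and GAD2 had -0.29 or beyond. The part of the ventral spinal cord genes in the difference of GATA3 between the trunk arrays was not tested. Of 10 erythroid and haematopoietic genes, 4, 7 and 7 lay at or above the floor, with sums of 1323, 1545 and 1817. Of 12 endothelial genes, 10, 8 and 9 did, with sums of 2068, 1788 and 2335. HBE, CDH5 and SOX18 were at least 2-fold higher on the HH19-titled array than on the HH16-titled array, and 0 of both lists lower. HBE gave 439, 187 and 375 and ERG 412, 21.1 and 98.1, the last 2 under the floor. Both were like GATA3 highest on the HH9 array and lowest on the HH16-titled array. KDR and TAL1 were lowest on the HH9 array. The part of both lists in the signal of GATA3 was not tested. Of 10 other GATA family genes and cofactors, 0 of the 9 with a ratio were at least 2-fold different between the trunk arrays. ZFPM2, which encodes a GATA cofactor, and LDB1, which encodes a cofactor of LIM domain proteins, came close, with log2 ratios of -0.96 and of -0.95 or beyond.

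The genes whose signals over the 3 arrays were most like those of an autonomic gene were found by the distance between their floored log2 signals after each gene was centred on its mean. For HAND2 these were the neuronal bHLH factor NEUROD4, NEURL1B and the neuronal zinc finger factor MYT1, at distances of 0.11, 0.19 and 0.20. HAND2, NEUROD4 and NEURL1B lay under the floor on the HH9 and HH19-titled arrays, so only their HH16-titled signals were matched. NEUROD4 gave signals of 34.7 for the HH9 array, 435 for the HH16-titled array and 45.6 for the HH19-titled array. For TH they were MSS51, ROR2 and NAT8, at 0.16, 0.20 and 0.24, and for GATA3 they were GIP, ITGB3 and CNTNAP1, at 0.06, 0.07 and 0.09. TH, MSS51, ROR2 and NAT8 all lay under the floor on the HH19-titled array, so there only the floor was matched. The signal of GATA3 on the HH16-titled array was raised to the floor, so its likeness is to a bound. Within a distance of 0.25 lay 3 genes for HAND2, 4 for TH and 27 for GATA3, of 8968 searched. With only 3 arrays such a likeness is a description of these arrays.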

How the data were processed

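The deposited values are MAS5 signals, intensity values on a linear scale for 38535 probe sets, and, per the methods, a company performed the hybridization and normalization for the authors. The methods describe biological replicates of each stage and the use of their mean. Whether a deposited column is that mean or 1 replicate, and the MAS5 version and settings, are not stated in the sources used here. The trimmed mean signal was 497 to 498 on each of the 3 arrays. After 96 control probe sets were left out, 27168 carried 1 gene, 177 several and 11094 none. Genes were named by the platform annotation. Of several probe sets, the one whose log2 signal was highest on average stands for the gene. Some results are not reported here.

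Ratios were taken after raising signals to the 40th percentile, and differences of at least 2-fold, the study's fold threshold, were counted. The genes and 16 further gene lists were chosen by function or cell type with earlier results of these data known. The rule for named genes was every gene of the set, DDC and RET, from each list up to 5 genes with the largest differences past 2-fold, and the 3 genes most like each. The named genes of the lists are taken from these, and others are named as contrasts or markers chosen after their values were seen. The background of weak signals, the spread between probe sets and the folds of every probe set under other floors, and the marker sums without DLX5 or NKX3-2, were added after the data were seen. The counting method was tried on simulated data. That trial does not check the counts of the autonomic genes, whose signals were weak and whose ratios between the trunk arrays were all bounds. Alternatives were other normalizations, floors, probe set rules and a 3-fold threshold. Python 3.11.15, numpy 2.4.6, pandas 2.3.3 and matplotlib 3.10.9 were used.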

Additional observations from a re-analysis of the deposited data

Results flagged for a closer look

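TH moved opposite ways from the HH9 array on the trunk arrays: its log2 ratio over the HH9 array was 1.03 on the HH16-titled array and -0.79 or beyond on the HH19-titled array. With 1 array per group this difference in direction was not tested. At this floor only 2 of the 6 genes, GATA3 and TH, had a ratio to the HH9 array on both trunk arrays, and TH alone had opposite signs. With the floor at the 20th percentile GATA2 had them too, with log2 ratios of 0.38 on the HH16-titled array and -0.14 on the HH19-titled array.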

How the results depend on the processing

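The direction of each ratio of HAND2, GATA2, GATA3, TH and DBH was the same under every alternative that gave one. Another floor cannot reverse a ratio. HAND2, GATA2, GATA3 and TH have 1 probe set each, so a probe set rule could only keep or drop them. By the probe set that stands for the gene, DBH had a ratio only with a lower floor or none. Only the normalizations could therefore have changed a direction, and not that of DBH. The counts of 2-fold differences depended on the floor and the probe sets. With the floor at the 60th percentile they were 0 by construction, because no signal of these genes lay 2-fold above that floor. Between the HH19-titled and HH16-titled arrays, 2 genes were at least 2-fold lower. The count, also in either direction, was 0 for a floor at the 60th percentile and 1 without probe sets of the suffixes s, x and a, which leaves out both HAND genes. With no floor it was 3, as DBH joined with a log2 ratio of -1.28. For the HH16-titled array over the HH9 array, 2 were higher and 1 lower. The number higher was 1 after median centring, after quantile normalization, without those probe sets and at 3-fold, and at the 60th percentile floor 0 were higher, 0 lower and 0 different in either direction. With no floor 3 were higher and 4 differed in either direction. For the HH19-titled array over the HH9 array, 0 were higher and 1 lower. At the 20th percentile floor or without any floor, 1 was higher, 2 were lower and 3 differed in either direction, and at the 60th percentile floor or at 3-fold 0 were lower and 0 differed. The number of all genes at least 2-fold different between the trunk arrays was 370, against 958 with the floor at the 20th percentile, 196 at the 60th, 1481 with no floor and 97 at 3-fold. In the same order, it was 1069 for the HH16-titled array over the HH9 array, against 1751, 685, 2286 and 397, and 843 for the HH19-titled array over the HH9 array, against 1514, 494, 2094 and 270. Genes at or above the floor cannot be counted with no floor. No paired analysis was possible because each group has 1 array. The number of arrays limits the precision, and signals near the floor limit the folds of every gene of the set.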
